A study of Mus musculus with 6 samples.

Results

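Axon guidance genes were examined in primary mouse Sertoli cells labelled as UXT knockout and in wild-type Sertoli cells. The genes were those of the deposited table whose symbols begin with Sema, Plxn, Robo, Slit and a digit, Efna, Efnb, Epha, Ephb, Ntn, Unc5, Nrp or Flrt. They filled 36 of the table's 3261 rows and carried 35 symbols, because Efna1 stood on 2 rows. The rule found 13 semaphorin rows, 7 plexin rows, 3 Robo, 2 Slit, 3 ephrin, 3 Eph receptor, 2 netrin, 2 Unc5 rows and 1 Flrt row, and no neuropilin row. The rule goes by symbol, but the families were chosen with earlier results of these data known, and the table itself was made by measured values: every row except 2 (1 of Efna1 and 1 of Hmga1) passed a 1.5-fold and an adjusted p limit of 0.05 on these same libraries. The tests below are therefore no independent evidence that a gene differs, and genes that it leaves out were not analysed here.

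The knockout group held 3 libraries (KO) of Sertoli cells isolated from UXT KO animals and infected with a viral construct that carried CRE recombinase. The wild-type group held 3 libraries (WT) of Sertoli cells isolated from wild type mice and infected with an empty plasmid. Both groups were on the C57BL/6 strain background, were enriched for Sertoli cells by differential plating and were infected in 2 rounds of 24 hours. Sertoli cells line the seminiferous tubule and nurse its germ cells, and UXT, also named ART-27, is a prefoldin-like cofactor of the androgen receptor. Loss of UXT and receipt of CRE cannot be told apart, since only KO cells received it. The labels give no promoter for CRE, no ages, and no statement that the 3 libraries of a group are separate animals or cultures, so p-values measure the spread between these libraries only, which may be technical. The level of Uxt itself was not analysed here, so the table offers no check of the deletion.

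Guidance genes encode secreted or membrane-bound cues and the receptors that read them. Semaphorins signal through plexins, often with a neuropilin as co-receptor; Slits signal through Robo receptors; netrins signal through DCC and Unc5 receptors; ephrins signal through Eph receptor kinases on a touching cell. They were named for steering growing axons, and the same pairs act in blood vessels, epithelia and immune cells, mostly by changing the actin cytoskeleton and cell adhesion.

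Values per library are deposited log2 normalized values, and a difference is the KO mean minus the WT mean on that scale. These values were moderated: among the 34 rows with usable values the difference was between 0.101 (Unc5d) and 0.823 (Epha2) of the log2 fold change listed in the authors' deposited table, with a median of 0.566. Folds below are therefore those of the authors' deposited table, and the values per library show spread and overlap on the moderated scale. The spread may be shrunk there as well, as for Unc5d, with an SD of 0.017 in KO and 0.011 in WT libraries. SDs, SEs and limma p-values below hold for that scale only. The depth of the libraries is unknown, so no detection floor was computed. The median value over all rows was between 8.82 and 8.91 in KO libraries and between 9.15 and 9.18 in WT libraries.

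Among the guidance genes in the table, KO cells had lower transcript levels for semaphorins, most of their plexin receptors, netrins and Eph receptors. Levels were higher for 5 genes, namely the receptor genes Robo2, Unc5a, Unc5d and Plxna2 and the ligand gene Slit2. Robo2 was 10.7-fold higher and Robo4, of the same receptor family, was 11.9-fold lower in the authors' deposited table. By limma, at an adjusted p under 0.05 and past 1.5-fold in the authors' deposited table, 28 of the 36 rows were lower and 5 were higher. These were 77.8% and 13.9% of the guidance rows, against 67.4% called lower and 32.0% called higher among all rows by the same rule, a contrast that was not tested. Without the 2 rows of Efna1, whose values cannot be assigned to a row, they were 82.4% and 14.7% of 34 rows. The median log2 fold change was -1.26 over the 36 guidance rows and -0.88 over all rows of the authors' deposited table. KO and WT values did not overlap in 33 of the 36 rows, beside 97.4% of all rows, with every KO value above the WT values in 5 (31.6% of all rows) and below them in 28 (65.7% of all rows). The others were Efnb3 and the 2 rows of Efna1.

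The balance between lower and higher rows depended on the scaling between libraries. The median difference over all rows was -0.40, and quantile normalization raised it by 0.33 and centring of each library on its median by 0.30, both computed over the selected rows alone. Under quantile normalization 18 guidance rows were lower and 5 higher, with 1139 lower and 1048 higher among all rows. Under median centring 19 were lower and 6 higher, with 1017 lower and 1112 higher among all rows. Of the 28 guidance rows called lower, 17 were lower under both rescalings. The 11 others were Sema4a, Sema4d, Sema4g, Sema6a, Plxna4, Plxna4os1, Slit3, Robo3, Ntn3, Flrt1 and Ephb2. All 5 rows called higher were higher under both. Since both rescalings raised the median difference, a higher row could hardly lose its call, and this is no check of those 5. Relative to the table's median difference, 26 of the 29 lower rows with usable values had a difference further below, the exceptions being Sema4d, Plxna4os1 and Efnb3.

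**Figure D1:**
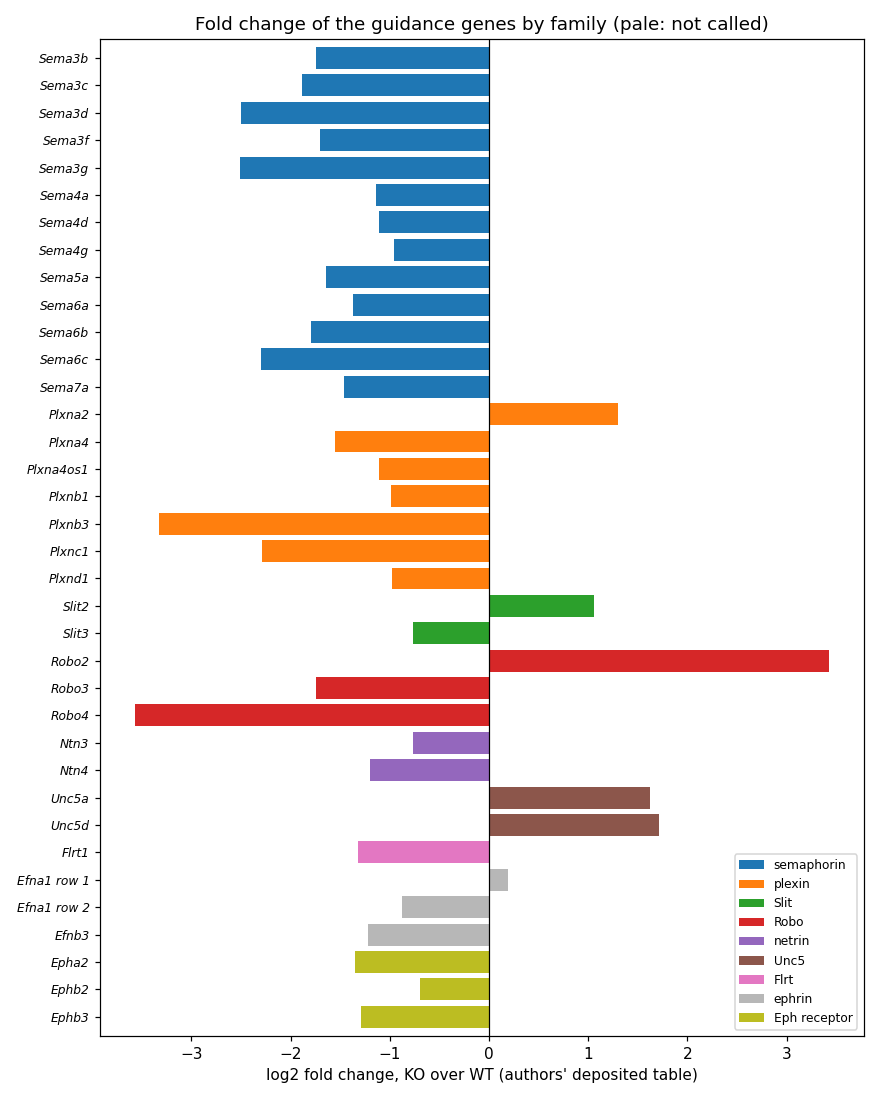
Log2 fold change, KO over WT, of each of the 36 guidance rows in the authors' deposited table, one bar per row, coloured by family, with rows not called drawn pale. All 13 semaphorin bars point to lower values in KO, although Sema4a and Sema4d turned slightly positive after quantile normalization, and the longest bars are Robo2 to the right and Robo4 and Plxnb3 to the left.

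**Figure D2:**
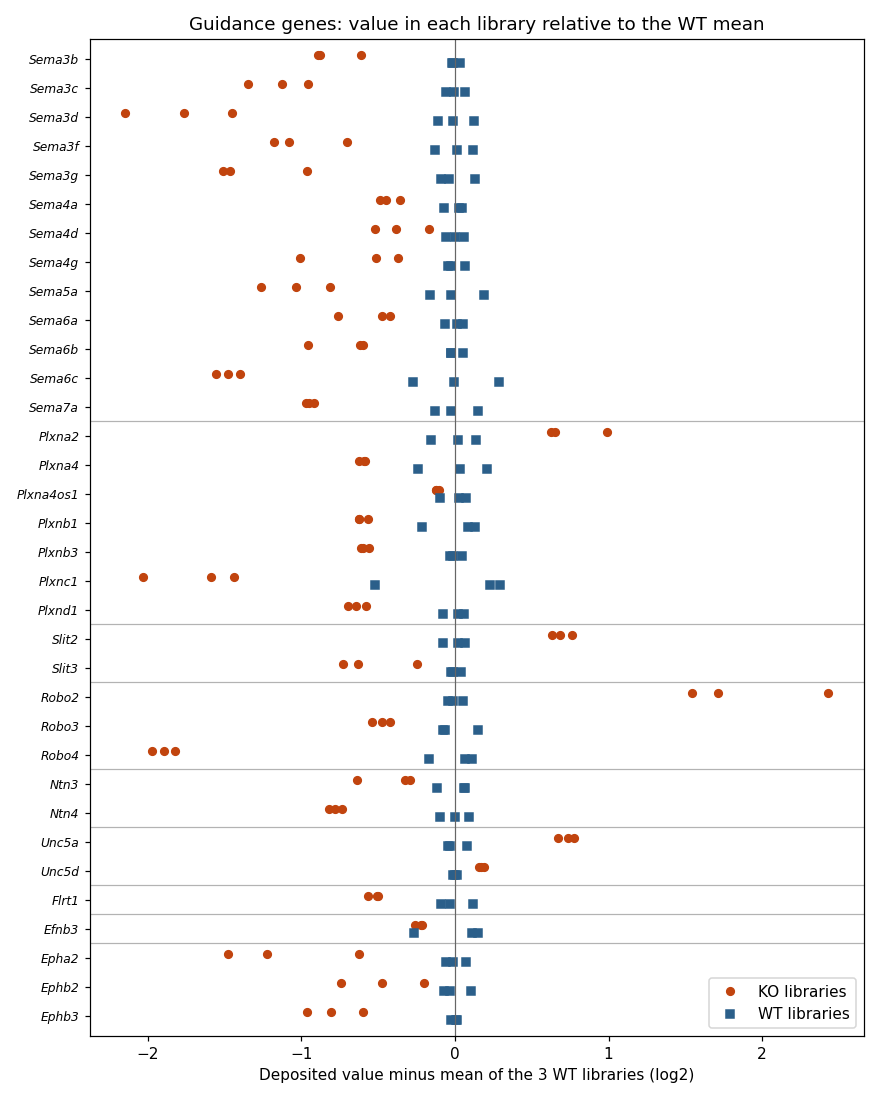
Deposited log2 value in each library minus the mean of the 3 WT libraries, for the 34 guidance rows with usable values, with KO libraries as circles and WT libraries as squares. KO and WT points are apart in 33 rows, and in Efnb3 WT library 1 lies level with the lowest KO library.

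Slit and Robo genes changed in both directions. Slit2 and Slit3 encode secreted leucine-rich repeat ligands, and Robo genes encode receptors of the immunoglobulin superfamily. Slit2 rose 2.08-fold and Slit3 fell 1.70-fold in the authors' deposited table. Robo2 rose 10.7-fold, while Robo3 fell 3.35-fold and Robo4 fell 11.9-fold in the authors' deposited table. Slit3 and Robo3 did not pass under either rescaling, at adjusted p from 0.0601 to 0.26 by limma. The other genes that RefSeq lists under these stems, Robo1 and Slit1, were not analysed here.

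The sequences before a transcription start of each of these 5 genes are shown. This ligand and receptor system holds Robo2 and Robo4, whose folds are the largest in either direction among the guidance genes. Each is the 250 bases before a transcription start of RefSeq (GRCm38.p6), read 5′ to 3′ on the gene's strand, and capitals mark matches to a GC box (GGGCGG or CCGCCC) or a TATA box (TATAAA or TTTATA).
Slit2 (higher), chr5:47982905-47983154, plus strand: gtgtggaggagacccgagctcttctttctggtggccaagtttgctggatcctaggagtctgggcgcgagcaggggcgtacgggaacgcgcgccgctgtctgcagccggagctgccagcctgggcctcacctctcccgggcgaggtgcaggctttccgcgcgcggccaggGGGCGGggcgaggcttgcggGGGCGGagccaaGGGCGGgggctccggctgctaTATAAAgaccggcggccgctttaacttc
Robo2 (higher), chr16:74411826-74412075, minus strand: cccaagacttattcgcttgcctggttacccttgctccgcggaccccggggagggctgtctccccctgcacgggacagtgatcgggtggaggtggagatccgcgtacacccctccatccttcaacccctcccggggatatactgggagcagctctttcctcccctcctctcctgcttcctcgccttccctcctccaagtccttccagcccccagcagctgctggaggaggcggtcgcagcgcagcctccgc
Slit3 (lower), chr11:35121206-35121455, plus strand: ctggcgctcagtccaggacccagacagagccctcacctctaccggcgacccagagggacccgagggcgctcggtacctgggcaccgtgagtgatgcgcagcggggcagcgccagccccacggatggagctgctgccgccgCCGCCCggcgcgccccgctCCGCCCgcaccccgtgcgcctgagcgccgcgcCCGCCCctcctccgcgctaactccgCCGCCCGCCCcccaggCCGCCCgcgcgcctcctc
Robo3 (lower), chr9:37433176-37433425, minus strand: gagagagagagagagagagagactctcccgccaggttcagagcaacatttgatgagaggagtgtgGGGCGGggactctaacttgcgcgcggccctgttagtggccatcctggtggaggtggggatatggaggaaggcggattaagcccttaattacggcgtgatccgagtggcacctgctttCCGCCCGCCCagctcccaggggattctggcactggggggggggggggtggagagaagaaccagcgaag
Robo4 (lower), chr9:37401722-37401971, plus strand: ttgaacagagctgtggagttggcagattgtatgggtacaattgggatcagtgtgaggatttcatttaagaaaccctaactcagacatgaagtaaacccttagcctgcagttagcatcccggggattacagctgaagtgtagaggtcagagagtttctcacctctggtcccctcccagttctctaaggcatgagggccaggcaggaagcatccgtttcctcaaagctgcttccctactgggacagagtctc

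RefSeq lists 3 starts for Robo2, of which the one furthest along the gene is shown, and the start used in these cells is unknown. By the RefSeq gene spans given below, the Slit2, Robo2 and Robo3 windows lie within the gene and the Robo4 window lies partly within it. Only the Slit3 window lies wholly before its gene. The Slit2 window held 3 GC boxes and 1 TATA box, the Slit3 window 6 GC boxes and the Robo3 window 3, with both strands searched and overlapping matches counted. The Robo2 and Robo4 windows held neither motif. CpG pairs numbered 25 in the Slit2 window, 14 in Robo2, 35 in Slit3, 12 in Robo3 and 2 in Robo4, where the median over all 32851 promoters of the RefSeq table was 6. No window held the ETS core CCGGAA or the androgen receptor half-site AGAACA on either strand, which stood in 12.0% and 16.1% of all promoters. Of the 35 guidance symbols, 27 matched 37 promoters, and 70.3% of these held a GC box, beside 50.2% of the promoters of all table rows and 32.7% of all promoters. A match is a description of the letters and not a measured site.

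Robo2 (gene ID 268902, chromosome 16, 73891976 to 75447443 in GRCm38) had values of 9.03, 9.20 and 9.92 in KO libraries 1 to 3, against 7.54, 7.44 and 7.47 in WT libraries 1 to 3. The KO values lay far above the WT values and spread more, with KO library 3 the highest. The difference was 1.90 ± 0.20 (SE; limma adjusted p = 8.13e-05), and by fold Robo2 ranked 4 among the 1049 rows listed as higher in the authors' deposited table. Slit2 (gene ID 20563, chromosome 5, 47981291 to 48307735) had values of 13.68, 13.60 and 13.55 in KO libraries, against 12.84, 12.93 and 12.98 in WT libraries. Its groups were compact and apart, with a difference of 0.69 ± 0.076 (SE; limma adjusted p = 8.81e-05).

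Robo4 (gene ID 74144, chromosome 9, 37401902 to 37414023), whose product is known from vascular endothelium, had values of 7.36, 7.50 and 7.43 in KO libraries, against 9.15, 9.39 and 9.44 in WT libraries. The groups did not overlap, with a difference of -1.90 ± 0.10 (SE; limma adjusted p = 5.07e-06). Robo3 (gene ID 19649, chromosome 9, 37416045 to 37433436), known from commissural neurons, had values of 5.61, 5.55 and 5.66 in KO libraries, against 6.02, 6.01 and 6.24 in WT libraries. Its difference was -0.48 ± 0.086 (SE; limma adjusted p = 9.13e-04), and its groups did not overlap. Slit3 (gene ID 20564, chromosome 11, 35121456 to 35708507) had values of 12.55, 12.93 and 12.45 in KO libraries, against 13.15, 13.22 and 13.16 in WT libraries. KO library 2 came nearest to the WT values, and the difference was -0.54 ± 0.12 (SE; limma adjusted p = 0.00281).

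**Figure D3:**
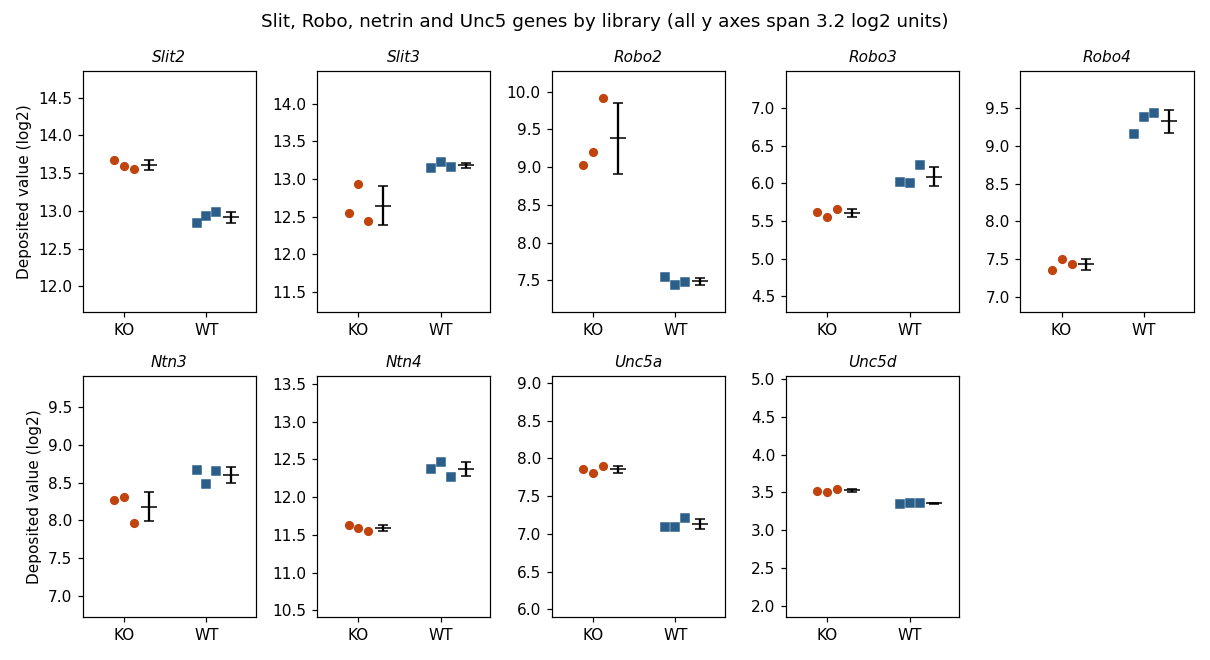
Deposited log2 values of Slit, Robo, netrin and Unc5 genes in each library, KO left of WT, with the mean and SD beside each group of 3. Slit2, Robo2, Unc5a and Unc5d are higher in KO and the other 5 are lower, of which Ntn3 turned to a difference of 0.0083 after quantile normalization.

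In the same libraries, 26 of 30 endothelial markers were in the table and all 26 were lower in KO, and their summed level (the sum of the antilogs of the deposited values) was 11109 to 12693 in KO and 19224 to 21082 in WT libraries. Of 30 macrophage markers 28 were in the table and all were lower, with sums of 14739 to 17364 in KO and 39969 to 50819 in WT libraries. Of 30 Sertoli markers 20 were in the table and all were lower, among them Amh, Sox9 and Wt1, with sums of 122443 to 147382 in KO and 248757 to 316136 in WT libraries. Myoid and pericyte markers (15 of 20 in the table, 14 lower and 1 higher) summed to 396382 to 457408 in KO and 548397 to 681345 in WT libraries, and fibroblast markers (10 of 20, all lower) to 706505 to 1173335 in KO and 1477544 to 1639373 in WT libraries. Leydig markers (5 of 13 in the table, 4 higher and 1 lower) summed to 64053 to 82048 in KO and 42849 to 48011 in WT libraries, and germ cell markers (3 of 20, all lower) to 93 to 102 in KO and 260 to 271 in WT libraries. Among all rows, 67.4% were called lower and 32.0% higher. The sums rest on moderated values and are weighted to the most abundant markers. By the authors' deposited table the median fold size was 9.52 for endothelial, 5.66 for macrophage and 3.54 for Sertoli markers. It was 2.53 for myoid and pericyte, 2.38 for fibroblast, 2.92 for Leydig and 2.78 for germ cell markers, whichever the direction. The median over all rows listed as lower was 2.33. None of these markers was listed at 0, none is a guidance gene, and their part in the results here was not tested. In bulk samples, fewer cells of a type and less RNA per cell cannot be told apart.

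Semaphorin transcripts fell. All 13 semaphorin rows, of 20 protein-coding semaphorin genes in RefSeq, were called lower, with folds from 1.94 to 5.71 and a median log2 fold change of -1.71 by the authors' deposited table, although Sema4a and Sema4d turned to differences of 0.016 and 0.0054 after quantile normalization. Of all rows 67.4% were called lower. Class 3 semaphorins are secreted and bind neuropilin and plexin complexes, and all 5 in the table fell. Sema3g fell 5.71-fold, Sema3d 5.68-fold, Sema3c 3.69-fold, Sema3b 3.36-fold and Sema3f 3.27-fold in the authors' deposited table.

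Sema3g (gene ID 218877, chromosome 14, 31217873 to 31230352) had values of 6.74, 7.23 and 6.69 in KO libraries, against 8.33, 8.16 and 8.11 in WT libraries. KO library 2 was the nearest to the WT values, and the difference was -1.31 ± 0.15 (SE; limma adjusted p = 1.14e-04). Sema3d (gene ID 108151, chromosome 5, 12383161 to 12588953) had values of 7.99, 8.37 and 8.69 in KO libraries, against 10.13, 10.02 and 10.26 in WT libraries. The KO values spread more widely than the WT values without reaching them, and the difference was -1.79 ± 0.16 (SE; limma adjusted p = 3.76e-05). Sema3c averaged 8.91 ± 0.20 in KO and 10.05 ± 0.061 in WT libraries, Sema3b 7.01 ± 0.16 in KO and 7.80 ± 0.030 in WT libraries, and Sema3f 8.14 ± 0.25 in KO and 9.12 ± 0.13 in WT libraries (SD, n = 3 each). The class 3 genes kept their calls under both rescalings.

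The membrane-bound semaphorins were lower as well. Sema6c, a transmembrane semaphorin, fell 4.91-fold, Sema6b 3.47-fold and Sema6a 2.60-fold in the authors' deposited table. Sema6c (chromosome 3, 95160420 to 95174050) averaged 10.59 ± 0.078 in KO and 12.07 ± 0.28 in WT libraries, where the WT libraries spread more (SD, n = 3 each; limma adjusted p = 3.33e-05). Sema7a, whose product is held in the membrane by a lipid anchor, fell 2.75-fold in the authors' deposited table, with averages of 11.81 ± 0.028 in KO and 12.75 ± 0.14 in WT libraries (SD, n = 3 each; limma adjusted p = 3.52e-05). Sema5a, which carries thrombospondin repeats and fell 3.13-fold by the authors' deposited table, averaged 9.38 ± 0.22 in KO and 10.41 ± 0.18 in WT libraries (SD, n = 3 each). Folds of class 4 genes were smaller, at 2.21 for Sema4a, 2.15 for Sema4d (known from lymphocytes as CD100) and 1.94 for Sema4g in the authors' deposited table. None of the class 4 genes passed under both rescalings: Sema4a and Sema4d passed under neither and Sema4g had an adjusted p = 0.095 by limma after median centring. Sema6a passed under neither, at an adjusted p = 0.444 by limma after quantile normalization and 0.0759 after median centring.

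Plexins, the semaphorin receptors, were lower with the exception of Plxna2. Of 7 rows, 6 were called lower and 1 higher, beside 67.4% and 32.0% of all rows. One of the lower rows, Plxna4os1, is a transcript from the opposite strand of Plxna4 and no receptor, whose difference turned to 0.18 after median centring. Plxnb3 fell 10.01-fold, Plxnc1 4.87-fold, Plxna4 2.93-fold, Plxna4os1 2.16-fold, Plxnb1 1.98-fold and Plxnd1 1.97-fold, and Plxna2 rose 2.47-fold, in the authors' deposited table. Plxna1, Plxna3 and Plxnb2 were not analysed here.

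Plxna2 (gene ID 18845, chromosome 1, 194619791 to 194816869), a receptor of class 6 semaphorins among others, had values of 9.33, 9.36 and 9.70 in KO libraries, against 8.55, 8.84 and 8.72 in WT libraries. Every KO value lay above every WT value, with a difference of 0.75 ± 0.12 (SE; limma adjusted p = 6.31e-04). Plxnb3 (gene ID 140571, chromosome X, 73756556 to 73772510), a receptor of Sema5a, had values of 4.79, 4.81 and 4.84 in KO libraries, against 5.39, 5.37 and 5.45 in WT libraries. The groups were tight and apart on the moderated scale, and the difference of -0.59 ± 0.059 (SE; limma adjusted p = 5.76e-05) was 0.177 of the log2 fold change listed in the authors' deposited table. Plxnc1 (gene ID 54712, chromosome 10, 94790866 to 94945015), the receptor of Sema7a, had values of 7.77, 8.36 and 8.21 in KO libraries, against 9.28, 10.09 and 10.03 in WT libraries. WT library 1 was the lowest of its group, and the WT SD of 0.45 was the largest WT SD among the guidance genes, beside a difference of -1.69 ± 0.23 (SE; limma adjusted p = 2.47e-04).

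Plxnb1, a receptor of Sema4d, averaged 10.02 ± 0.035 in KO and 10.63 ± 0.19 in WT libraries, and Plxnd1, known from endothelium, averaged 11.96 ± 0.060 in KO and 12.60 ± 0.070 in WT libraries (SD, n = 3 each). Plxna4 averaged 6.59 ± 0.021 in KO and 7.19 ± 0.23 in WT libraries (SD, n = 3 each), and had an adjusted p = 0.282 by limma after quantile normalization. Plxna4os1 (chromosome 6, 32511141 to 32515576) lies within the span of Plxna4 (32144543 to 32588192) and shares no exon base with it in GENCODE M21. The counter, its annotation and its strand setting are not given in the sources used here, so whether reads of one gene were counted to the other is unknown. Plxna4os1 had values of 2.80, 2.82 and 2.80 in KO libraries, against 2.996, 2.95 and 2.82 in WT libraries, so that KO library 2 and WT library 3 nearly touched. The call of Plxna4os1 rested on single libraries, with an adjusted p = 0.033 by limma for all libraries and values from 0.0691 to 0.0937 when any 1 KO library, WT library 1 or WT library 2 was left out.

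The 2 netrin genes in the table were lower and its 2 Unc5 receptor genes higher. These stand beside 67.4% of all rows called lower and 32.0% called higher. Ntn4, a netrin of basement membranes, fell 2.30-fold and Ntn3 fell 1.70-fold in the authors' deposited table, although Ntn3 turned to a difference of 0.0083 after quantile normalization. Unc5d rose 3.27-fold and Unc5a 3.08-fold in the authors' deposited table, with an average log2 expression of 3.51 for Unc5d and 7.65 for Unc5a. The single Flrt row, Flrt1, which encodes a leucine-rich repeat membrane protein, fell by a factor of 2.50 in the authors' deposited table. The netrin genes Ntn1, Ntn5, Ntng1 and Ntng2, the netrin receptor genes Unc5b, Unc5c, Dcc and Neo1, and Flrt2 and Flrt3 were not analysed here.

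Unc5a (gene ID 107448, chromosome 13, 54945151 to 55006018) had values of 7.86, 7.80 and 7.90 in KO libraries, against 7.09, 7.09 and 7.21 in WT libraries. The difference was 0.73 ± 0.087 (SE; limma adjusted p = 1.37e-04) and exceeded the spread within either group. GENCODE M21 lists 34 exon bases of Unc5a (0.816%) as shared with Hk3 on the opposite strand, and Hk3 fell 3.94-fold in the authors' deposited table. Unc5d (gene ID 210801, chromosome 8, 28646717 to 29219671) had values of 3.52, 3.51 and 3.54 in KO libraries, against 3.34, 3.35 and 3.36 in WT libraries. The groups were apart by a small step on the moderated scale, with a difference of 0.17 ± 0.035 (SE; limma adjusted p = 0.00167). A filter on low values left 4 guidance rows higher, Unc5d not among them, and 930 rows higher in all.

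Ntn4 (gene ID 57764, chromosome 10, 93641049 to 93745972) had values of 11.64, 11.59 and 11.55 in KO libraries, against 12.37, 12.46 and 12.27 in WT libraries. The groups did not overlap, and the difference was -0.78 ± 0.075 (SE; limma adjusted p = 4.98e-05). Ntn3 (gene ID 18209, chromosome 17, 24203831 to 24209387) had values of 8.28, 8.31 and 7.96 in KO libraries, against 8.67, 8.49 and 8.66 in WT libraries. KO library 2 and WT library 2 were the closest, and the difference was -0.42 ± 0.12 (SE; limma adjusted p = 0.00748). Flrt1 (gene ID 396184, chromosome 19, 7087464 to 7166183) had values of 6.80, 6.74 and 6.81 in KO libraries, against 7.28, 7.43 and 7.22 in WT libraries. Its groups were apart with a difference of -0.53 ± 0.090 (SE; limma adjusted p = 7.39e-04), and the adjusted p was 0.462 by limma after quantile normalization.

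The 3 Eph receptor rows were called lower, beside 67.4% of all rows, and none of the 3 ephrin rows was called. Of the ephrin rows, 2 were those of Efna1, whose values cannot be assigned to a row. Their lack of a call therefore carries no information, and only Efnb3 was tested with usable values. Eph receptors are tyrosine kinases that bind ephrins on neighbouring cells. Epha2 fell 2.54-fold, Ephb3 2.45-fold and Ephb2 1.62-fold in the authors' deposited table. Ephb2 did not pass under either rescaling, at adjusted p = 0.0687 by limma after quantile normalization and 0.262 after median centring. RefSeq lists 11 other Eph receptor genes and 6 other ephrin genes, which were not analysed here.

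Epha2 (gene ID 13836, chromosome 4, 141301221 to 141329384), a receptor of ephrin-A ligands, had values of 10.60, 10.86 and 11.45 in KO libraries, against 12.02, 12.15 and 12.07 in WT libraries. KO library 3 stood above the other KO libraries and below every WT library, and the difference was -1.11 ± 0.19 (SE; limma adjusted p = 6.66e-04). Ephb3 (gene ID 13845, chromosome 16, 21204620 to 21223309), a receptor of ephrin-B ligands, had values of 9.20, 9.40 and 9.04 in KO libraries, against 10.02, 10.01 and 9.98 in WT libraries. The WT values were tight while the KO values spread more widely below them, and the difference was -0.79 ± 0.10 (SE; limma adjusted p = 1.92e-04). Ephb2, also a receptor of ephrin-B ligands, averaged 10.87 ± 0.27 in KO and 11.34 ± 0.093 in WT libraries (SD, n = 3 each; limma adjusted p = 0.00696).

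Efnb3 (gene ID 13643, chromosome 11, 69554092 to 69561150), a transmembrane ephrin, was listed as 2.33-fold lower in KO in the authors' deposited table. Its values were 4.30, 4.34 and 4.35 in KO libraries, against 4.30, 4.67 and 4.71 in WT libraries. WT library 1 lay level with the lowest KO library, the groups overlapped, and Efnb3 did not pass (difference -0.23 ± 0.10, SE; limma adjusted p = 0.0513). Without WT library 1 the difference was -0.36 and the limma adjusted p was 6.09e-04, over the 3257 rows left without the symbols on 2 rows it was 0.0467, and after median centring the difference was 0.064.

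Efna1 (gene ID 13636, chromosome 3, 89271730 to 89280951), a lipid-anchored ephrin that binds Epha2, stood on 2 rows with different statistics and the same 6 values. In the authors' deposited table the first row was listed as 1.14-fold higher with an adjusted p of 0.212, and the second as 1.84-fold lower with an adjusted p of 4.15e-04. The average log2 expression in the authors' deposited table was 10.56 on the first row and 8.02 on the second. Both rows gave 8.25, 10.47 and 8.17 under the KO columns, and 10.45, 8.11 and 10.56 under the WT columns. The values thus alternate between levels near the average of one row and levels near that of the other, within each group. They cannot be assigned to a row, so no difference or direction is given for Efna1. The fold of 1.14 and its adjusted p lie outside the limits that the rest of the guidance rows met. The other symbol on 2 rows, Hmga1, likewise had the same 6 values on both.

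**Figure D4:**
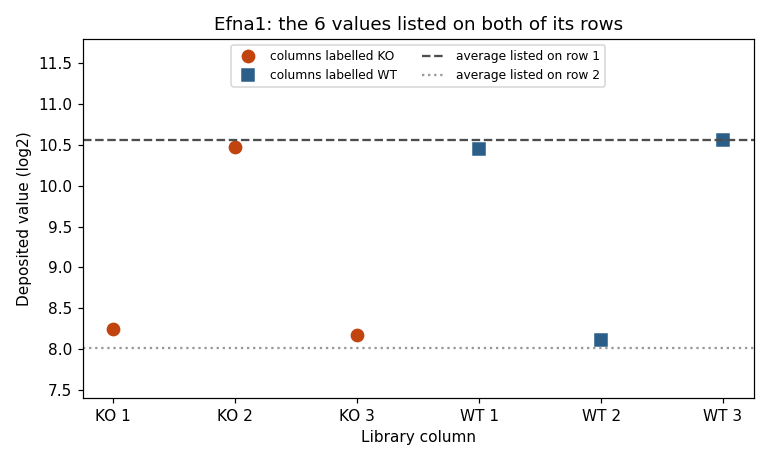
Deposited log2 values listed for Efna1 under the 3 KO columns (circles) and the 3 WT columns (squares), identical on its 2 rows, with the average log2 expression of each row in the authors' deposited table as lines. The values 8.25, 10.47 and 8.17 under KO and 10.45, 8.11 and 10.56 under WT fall near one line or the other irrespective of the group.

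Genes that act beside these ligands and receptors were taken from 4 lists of co-receptors, co-ligands and cytoplasmic transducers, 178 genes in all, of which 52 were in the table. By limma 41 of the 52 were lower and 11 higher, and the median log2 fold change was -1.03 by the authors' deposited table, beside -0.88 for all rows. Of all rows, 67.4% were called lower and 32.0% higher, and the lists below are to be read against these shares. Among 18 partners of semaphorins in the table, 17 were lower and 1 higher. Among 13 partners of ephrins 8 were lower and 5 higher, among 12 partners of Slit and Robo 8 were lower and 4 higher, and among 11 partners of netrins and Flrt 9 were lower and 2 higher. After median centring 21 partner genes were lower and 11 higher, beside 1017 lower and 1112 higher among all rows.

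The 3 partner genes with the largest falls were Cldn5, a tight junction gene of endothelium, at 26.5-fold, Cldn4, a claudin of epithelia, at 17.1-fold, and Cd72, a receptor of Sema4d on B cells, at 11.1-fold in the authors' deposited table. Cldn5 had values of 5.68, 5.70 and 5.59 in KO libraries, against 6.89, 7.12 and 7.08 in WT libraries (limma adjusted p = 9.08e-06). Cldn4 had values of 7.60, 7.99 and 8.10 in KO libraries, against 10.70, 11.02 and 10.97 in WT libraries (limma adjusted p = 2.90e-06). Cd72 had values of 6.50, 6.65 and 6.60 in KO libraries, against 8.01, 8.41 and 7.97 in WT libraries (limma adjusted p = 2.40e-05). In each of these the highest KO value lay more than 1 log2 unit below the lowest WT value.

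The 3 partner genes with the largest rises were the kinase gene Abl2 at 2.08-fold, the syndecan gene Sdc1 at 1.86-fold and Srgap1, a GTPase-activating protein that binds Robo receptors, at 1.82-fold in the authors' deposited table. Abl2 had values of 12.25, 12.20 and 12.57 in KO libraries, against 11.66, 11.69 and 11.64 in WT libraries (limma adjusted p = 3.99e-04). Sdc1 had values of 14.44, 14.58 and 14.08 in KO libraries, against 13.74, 13.80 and 13.82 in WT libraries (limma adjusted p = 0.00212). Srgap1 had values of 10.31, 10.08 and 10.55 in KO libraries, against 9.78, 9.89 and 9.70 in WT libraries (limma adjusted p = 0.00318). The groups did not overlap in any of the 3, and the KO libraries spread more than the WT libraries. Cldn5 is also an endothelial marker of the lists above, and without genes on any marker list 35 partner genes were lower and 11 higher of 46.

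The spread between libraries on the moderated scale was compared between the groups without a test. The SD was larger in KO than in WT libraries for 19 of 34 guidance rows and larger in WT for the other 15. Over all rows with usable values it was larger in KO for 1777 of 3257 and larger in WT for 1480. Over the 34 guidance rows with usable values the median SD was 0.169 in KO and 0.0912 in WT libraries, beside 0.102 in KO and 0.0931 in WT libraries over all rows. KO library 3 was the highest KO library in 4 of the 5 higher guidance genes, beside 58.0% of all rows listed as higher. KO library 1 was the lowest KO library in 13 of the 29 lower guidance rows (44.8%), beside 44.6% of all lower rows. Leaving out any 1 library left 5 guidance rows higher and 27 or 28 lower.

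Position in the genome was compared next. Robo4 and Robo3 are neighbours on chromosome 9, 2.02 kb apart, and Sema3b and Sema3f lie 72.3 kb apart on chromosome 9. Within each pair both genes were lower, beside 67.4% of all rows, and Robo3 lost its call under both rescalings. The 5 higher genes span 60.9 to 1560 kb in RefSeq with a median of 326 kb, against 4.44 to 587 kb with a median of 27.1 kb for the 28 lower rows. Over all rows the median span was 19.9 kb for higher and 23.1 kb for lower rows. Long genes occur in both directions, since Slit3 (587.1 kb), Sema5a (451.5 kb) and Plxna4 (443.6 kb) were lower while Robo2 (1555.5 kb), Unc5d (573.0 kb) and Slit2 (326.4 kb) were higher. Slit3 lost its call under both rescalings and Plxna4 under quantile normalization, while Sema5a kept its call. Robo2, Unc5d and Slit2 also kept theirs, but both rescalings raised the median difference, so a higher row could hardly lose its call. These spans describe 33 rows and were not tested.

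**Figure D5:**
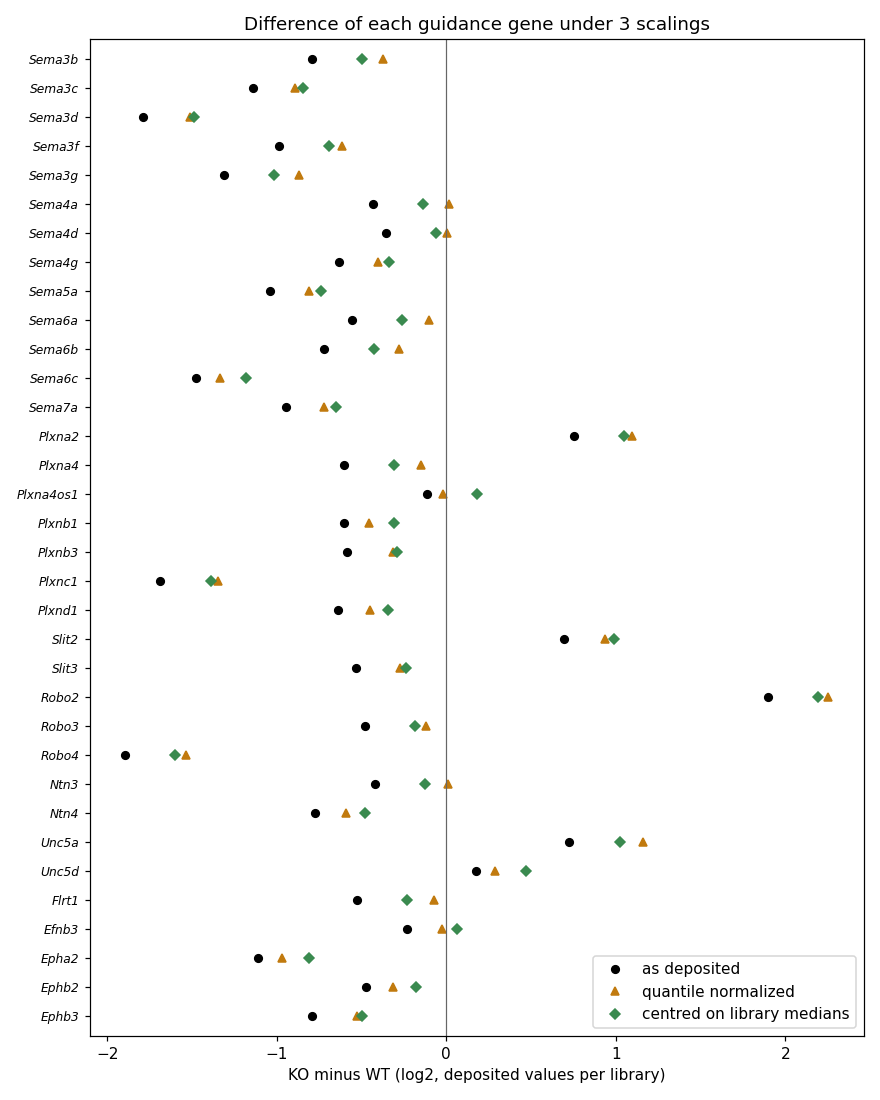
KO minus WT difference (log2) of the 34 guidance rows with usable values, from the deposited values and after 2 rescalings between libraries. Robo2, Slit2, Plxna2, Unc5a and Unc5d lie above 0 under all 3 scalings, while Sema4a, Sema4d and Ntn3 turned positive after quantile normalization and Efnb3 and Plxna4os1 after median centring. Both rescalings raised the median difference over all rows, so rows already above 0 could hardly turn.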

How the data were processed

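RNA was sequenced from 3 KO and 3 WT libraries of primary Sertoli cells, grouped and numbered by their titles. Per the labels' protocols, libraries came from a stranded kit for messenger RNA. Per the submitters' processing notes, FastQC, STAR, DESeq2 and the mm10 build were used; versions, the counter, the annotation and the strand setting are not given in the sources used here. Per the file headers, the 1 deposited table holds a signed fold score (KO over WT, or minus the inverse ratio), log2 fold changes, p-values with adjusted p-values, average log2 expression, and normalized log2 values per library, whose transformation the authors do not name.

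All 3261 rows were fitted with limma 3.58.1 (R 4.3.3), with a mean-variance trend and no covariate, and p-values were adjusted by Benjamini-Hochberg over all rows. The fit was tested on simulated data. A row was called at an adjusted p under 0.05 and an authors' fold of at least 1.5. Members and gene lists were chosen with earlier results of these data known. Values per library are printed for the 2 largest rises and falls of each family, uncalled or overlapping rows and Efna1, with Slit3 and averages of other genes added after their values were seen, and for the 3 largest falls and rises of the partner genes. Coordinates and promoters are from RefSeq GRCm38.p6, and exon overlaps from GENCODE M21. Alternatives were 2 rescalings, 2 other variance priors, a filter on low values, a stricter threshold, a replicate block, removal of the symbols on 2 rows, and leaving out each library.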

Additional observations from a re-analysis of the deposited data

How the results depend on the processing

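Of the 34 guidance rows with usable values, 22 kept their direction and call under every one of 14 alternatives that gave them a value; the filter on low values removed some rows and gave none for them. Another pseudocount and DESeq2 were not run, since the values are log2 and not counts. Quantile normalization left 18 guidance rows lower, and among all rows 1139 lower. Median centring left 21 partner genes lower, and 1017 of all rows. Differences turned after quantile normalization for Ntn3 (0.0083), Sema4a (0.016) and Sema4d (0.0054), and after median centring for Efnb3 (0.064) and Plxna4os1 (0.18, adjusted p = 0.0102 by limma); the cause was not tested. Efnb3 passed under 4 alternatives and Plxna4os1 failed under 8 and turned under 1. Leaving out each library gave 5 higher and 27 to 28 lower guidance rows, 10 to 11 higher and 37 to 41 lower partner genes, 1015 to 1032 higher and 2058 to 2154 lower rows in all, and 33 to 34 guidance rows with separate groups; recounts of separate groups were added after seeing the data.

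Whether the replicate numbers pair the libraries cannot be decided from 3 libraries per group. Deviations from the group means correlated at 0.177, -0.0731 and -0.00388 over genes for numbers 1 to 3. Not every library correlated best with its own number. With the replicate block 5 guidance rows were higher and 29 lower (Efnb3 joined, adjusted p = 0.0316 by limma), with 1044 higher and 2206 lower among all rows. Depth is unknown, so no limit of detection can be given, and rescaling used the selected rows alone.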
